A study of Mus musculus with 12 samples.

Results

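Collagens are the chains of the main fibrous and sheet-like proteins of the extracellular matrix, and their transcripts were followed in the β-cell and non-β-cell fractions of pancreatic islets of NOD mice. The members were the protein-coding genes whose symbol is Col, a number, a and a number. A member had to exceed 1 CPM, the usual unit of counts scaled to libraries of a common size, in at least 3 of the 12 samples. The table held 44 such genes and 31 passed, among 15598 genes of any kind that passed. They comprised 9 of 11 fibrillar collagens, 3 of 6 basement membrane collagens, all of type IV, and 19 of 27 other collagens. The 13 that did not pass were Col2a1, Col4a3, Col4a4, Col4a6, Col8a2, Col9a1, Col9a3, Col10a1, Col11a1, Col17a1, Col19a1, Col22a1 and Col28a1, and the highest value of any of them in any sample was 1.86 CPM before TMM scaling. Just inside the limit stood Col6a5 and Col24a1, above 1 CPM in 3 samples each. Just outside stood Col8a2, Col9a3 and Col10a1, each above it in 2 samples. Without the non-β-cell samples of 8 weeks, 26 of the 31 would have passed. The other 5, Col4a5, Col6a5, Col13a1, Col23a1 and Col24a1, needed at least 1 of those samples to pass, so their differences that involve that group were partly set by the filter. Col12a1 and Col26a1 exceeded 1 CPM in 6 samples each, all of non-β-cells, and Col8a1 in only 2 β-cell samples. These also passed only through the non-β-cells, so their differences between fractions were favoured by the filter too.

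The NOD strain develops autoimmune diabetes, and its female mice were taken at 4 or 8 weeks of age. Islets were cultured overnight and dispersed, cells stained for CD45, the surface protein of leukocytes, were removed, and the rest were sorted by their own fluorescence and scatter into β-cells and non-β-cells. Each fraction at each age formed a group, giving 4 groups of 3 samples. According to the study's methods a sample is a pool of animals, although the labels say nothing of it, so p-values measure the spread between these samples, and no other strain was compared. All samples came from mice not given any treatment that the labels name.

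Fibrillar collagens, such as types I, III and V, assemble into the fibrils that give tissue its tensile strength. Type IV chains form the network of basement membranes, which in islets surrounds the capillaries, while the remaining types decorate fibrils, form beaded filaments or span the cell membrane. Mesenchymal and endothelial cells are known as major collagen producers, and mouse β-cells are known to rely largely on neighbouring endothelium for basement membrane.

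Libraries held 13755106 to 27040652 estimated counts. Ins2 lay between 25000 and 67300 CPM in the β-cell fraction and between 409 and 1690 CPM in the other. Gcg, the glucagon gene, stood in 4-week β-cells at 6.36% of its non-β level, and in 8-week β-cells at 1.62%. Ptprc, which encodes CD45, was at or below 0.789 CPM in every sample. The sum of 14 leukocyte markers, however, ranged from 51.7 to 77.5 CPM in β-cells and from 7.78 to 20.3 CPM in non-β-cells. Of these, 2 were tested, and 2 were higher in β-cells at each age by limma-voom, against 24.9% and 23.6% of all genes. Cd68 was higher by 2.43 at 4 weeks and 2.13 at 8 weeks on the log2 scale, and it rose with age in both fractions. The summed level of 12 endothelial markers ranged from 69.5 to 121 CPM in 4-week non-β-cells and from 519 to 1360 CPM in 8-week ones, and 12 of 12 rose by the test. The sum of 12 pericyte and fibroblast markers ranged from 31.8 to 98.4 CPM and then from 214 to 313 CPM, and 11 of 12 rose by limma-voom, 7 by edgeR's quasi-likelihood test and 9 by DESeq2. Of all genes 11.6% rose there by limma-voom. Which markers of any list passed the filter only through 8-week non-β-cells is not given. The rise of any such marker was favoured by the filter. In β-cells the ranges were 8.17 to 17.6 and 17.2 to 19.7 CPM for endothelial markers and 7.06 to 12.8 and 11.0 to 17.0 CPM for pericyte and fibroblast markers. There 0 of 12 passed in either list by limma-voom, 1 endothelial and 0 pericyte and fibroblast markers had an unadjusted p under 0.05, and 3 endothelial markers rose by edgeR and DESeq2, as did 2 pericyte and fibroblast markers by DESeq2. More cells of a type and more RNA per cell cannot be told apart in sorted bulk samples. Acinar markers moved too: the sum of 10 ranged from 34.3 to 98 CPM in 4-week and from 217 to 878 in 8-week non-β-cells, and from 103 to 223 and then 488 to 1020 in β-cells. Of the 9 tested, 3 rose in non-β-cells and 5 in β-cells by limma-voom, 8 and 4 by edgeR, and 8 and 2 by DESeq2. Both 4-week samples numbered 3 lay highest of their groups on the third principal component, at 62.9 against 6.7 and 5.9 in β-cells and at 32.7 against -17.5 and -56.4 in non-β-cells. Non-β-cell replicate 2 of 4 weeks, lowest there, lay at 78 on the second component, against 47.7 and 48.3.

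Most of the collagen signal lay in non-β-cells. Divided by transcript length so that genes can be added and compared, the 31 collagens summed to 22.1 ± 1.95 CPM per kilobase (SD, n = 3) in 4-week and 31.8 ± 4.23 in 8-week β-cells, against 122 ± 44.4 and 466 ± 44.6 in non-β-cells. Fibrillar collagens made up 34.7% and 43.3% of the β-cell sums and 37.9% and 40.8% of the non-β-cell sums. Type IV collagens made up 12.4% and 14.8% in β-cells against 30.2% and 31.3% in non-β-cells. The type IV share was therefore lower in every β-cell sample, at 11.4% to 16.0%, than in every non-β-cell sample, at 26.4% to 38.0%. Per kilobase, Col18a1 and Col5a3 led in β-cells at 4 weeks, with means of 4.57 and 4.53 CPM per kilobase. Col27a1 led at 8 weeks with 4.30, followed by Col4a1 with 3.45. In non-β-cells Col4a1 led at both ages, with 23.7 and 84.9, followed by Col4a2 with 14.0 and 60.9.

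**Figure D1:**
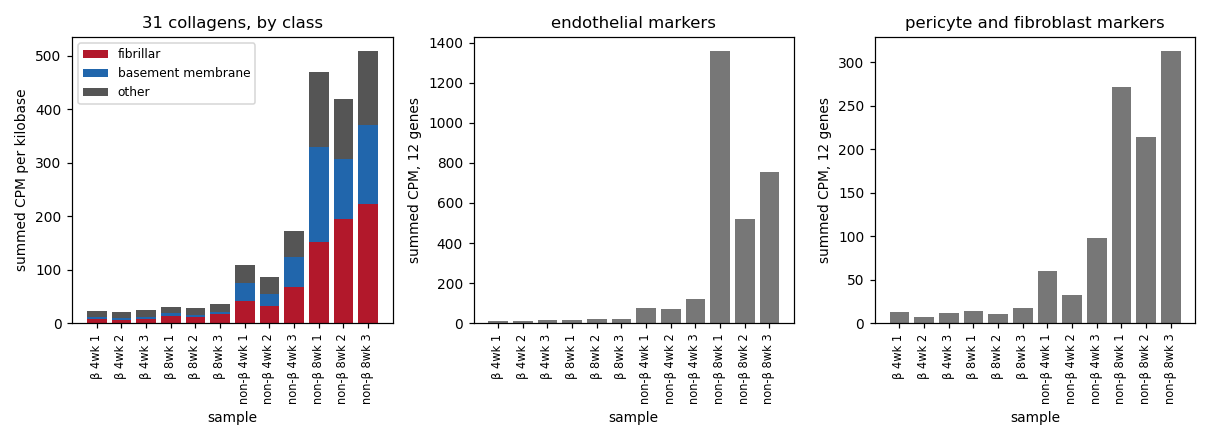
Summed levels in each of the 12 samples: the 31 collagens in CPM per kilobase stacked by class on the left, and the summed CPM of 12 endothelial and of 12 pericyte and fibroblast markers in the middle and on the right. The non-β-cell samples of 8 weeks are the highest in all 3 panels, and the axes differ between panels.

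The start sites of 4 members are shown because the genes part company with age: Col5a3 and Col27a1 differed in age change between the fractions, in opposite directions, while Col5a1, the partner chain of Col5a3 in type V collagen, and Col3a1 did not pass that test. Each run is the 250 bases before the RefSeq start site (GRCm38.p6) on the gene's own strand, with capitals for CCAAT or ATTGG (the CCAAT box), GGGCGG or CCGCCC (the GC box) and TATAAA or TTTATA (the TATA box).
Col5a3, chr9:20815068-20815317, minus strand: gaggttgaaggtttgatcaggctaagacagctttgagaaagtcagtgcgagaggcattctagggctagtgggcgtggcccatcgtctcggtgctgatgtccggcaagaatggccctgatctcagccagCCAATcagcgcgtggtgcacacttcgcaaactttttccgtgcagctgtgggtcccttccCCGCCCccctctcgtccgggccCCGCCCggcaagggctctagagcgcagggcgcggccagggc
Col5a1, chr2:27886175-27886424, plus strand: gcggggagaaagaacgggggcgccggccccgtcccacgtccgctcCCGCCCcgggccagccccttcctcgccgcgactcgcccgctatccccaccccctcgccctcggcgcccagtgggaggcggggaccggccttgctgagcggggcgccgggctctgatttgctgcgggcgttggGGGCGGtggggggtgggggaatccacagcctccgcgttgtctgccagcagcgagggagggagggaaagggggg
Col27a1, chr4:63215162-63215411, plus strand: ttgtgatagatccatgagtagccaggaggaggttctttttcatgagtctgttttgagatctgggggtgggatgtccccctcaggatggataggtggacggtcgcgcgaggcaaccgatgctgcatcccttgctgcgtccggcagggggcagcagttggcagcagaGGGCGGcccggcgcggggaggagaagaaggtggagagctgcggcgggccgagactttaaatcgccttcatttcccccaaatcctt
Col3a1, chr1:45311288-45311537, plus strand: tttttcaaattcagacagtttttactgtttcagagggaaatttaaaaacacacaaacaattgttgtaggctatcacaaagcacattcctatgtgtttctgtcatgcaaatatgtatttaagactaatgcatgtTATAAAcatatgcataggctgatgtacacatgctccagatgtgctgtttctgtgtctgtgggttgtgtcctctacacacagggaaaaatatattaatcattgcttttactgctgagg
Of the 31 members, 26 matched the promoter table, whose windows run on to 50 bases past the start. The GC box was held by 19 of the 26 members, against 35.7% of all 32851 windows of that length. The CCAAT box was held by 10, against 37.4%, and the TATA box by 3 (Col3a1, Col11a2 and Col13a1), against 13.6%. A match describes the letters only.

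Between fractions at 4 weeks, collagens were lower in β-cells. The test called 23 of the 31 lower and 2 higher, with a median log2 difference (β minus non-β) of -3.21 against 0 over all genes. Of all tested genes 23.7% were called lower and 24.9% higher. The calls took in 7 of 9 fibrillar, 2 of 3 type IV and 14 of 19 other collagens on the lower side, and Col6a4 and Col14a1, both other collagens, on the higher side. At 8 weeks 25 were lower and 1 higher, with a median of -4.06 against 0.01 over all genes. Backgrounds were 25.6% lower and 23.6% higher. The 25 were 9 of 9 fibrillar, 3 of 3 type IV and 13 of 19 other collagens, and the one higher was Col14a1. Of the 25, Col4a5, Col6a5, Col13a1 and Col24a1 had passed the filter only with 8-week non-β-cell samples, which favoured these calls. The 9 of 9 and the 3 of 3 include Col24a1 and Col4a5. Col6a5, Col8a1, Col12a1 and Col26a1, called lower at both ages, had passed only through the non-β-cells. The 4-week calls of Col6a5 and Col7a1 by limma-voom (adjusted p = 0.0392 and 0.0334) were each lost under 7 of 17 other settings. No sample was shared between the ages.

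**Figure D2:**
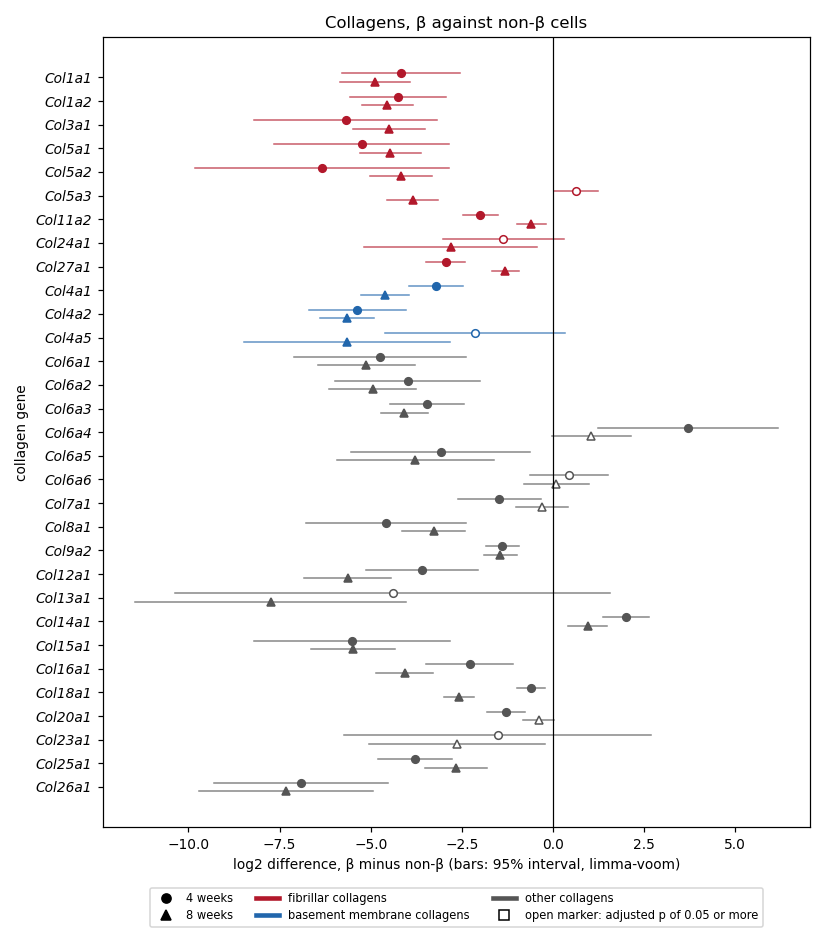
Log2 difference of β-cells from non-β-cells at 4 weeks (circles) and 8 weeks (triangles) for each of the 31 collagens, with 95% intervals from limma-voom and filled markers where the adjusted p was under 0.05. All but a few lie left of 0. Col14a1 and Col6a4 lie to the right, Col5a3 moves from 0.62 to -3.85, and Col26a1, at 0 in every β-cell sample, is a fitted value and not a measured fold.

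The type I and III chains, which build the thick fibrils of connective tissue, were lower in β-cells at both ages. Col3a1 read 2.49, 0.238 and 2.48 CPM in 4-week β-cells, 7.26, 6.93 and 19.1 in 8-week β-cells, 47.5, 36.2 and 96.7 in 4-week non-β-cells, and 165, 243 and 285 in 8-week non-β-cells. Every β-cell sample thus lay below every non-β-cell sample. The log2 difference was -5.68 ± 1.2 (SE, adjusted p = 0.00149) at 4 weeks and -4.50 ± 0.46 (adjusted p = 4.08e-06) at 8 weeks. Col1a1, the α1 chain of type I, read 2.85, 1.35 and 6.33 CPM in 4-week β-cells, 9.30, 8.33 and 15.7 in 8-week β-cells, 47.2, 28.2 and 97.6 in 4-week non-β-cells, and 245, 335 and 378 in 8-week non-β-cells. Col1a2, its α2 partner, read 2.24, 1.11 and 3.12, then 6.52, 6.93 and 11.3 in β-cells, and 34.5, 26.5 and 54.6, then 146, 195 and 235 in non-β-cells. The β-cell means were 6.09% and 3.48% of the non-β-cell means for Col1a1 and 5.60% and 4.30% for Col1a2, at 4 and 8 weeks. For comparison, Gcg lay at 6.36% and 1.62%, as given above. The part that non-β-cells carried into the β-cell sort may play in these low levels was not tested.

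Type IV chains of the capillary and islet basement membrane followed the same order. Col4a1 read 14.4, 15.7 and 16.7 CPM in 4-week β-cells, 23.4, 21.1 and 24.0 in 8-week β-cells, 142, 87.6 and 242 in 4-week non-β-cells, and 670, 427 and 587 in 8-week non-β-cells. Col4a2 read 2.54, 1.43 and 2.57, then 8.83, 6.37 and 8.30 in β-cells, and 79.5, 60.0 and 132, then 493, 300 and 386 in non-β-cells. No β-cell sample reached a non-β-cell sample in either gene. The log2 differences were -3.21 ± 0.34 and -4.60 ± 0.31 for Col4a1 and -5.37 ± 0.61 and -5.64 ± 0.34 for Col4a2 (SE, adjusted p from 3.77e-08 to 1.46e-05). Both genes lie head to head on chromosome 8 (chr8:11198423-11312826, minus, and chr8:11312805-11449287, plus, GRCm38), overlapping by 22 bases at their starts. Type IV heterotrimers are known to take both chains, yet per length the Col4a1 to Col4a2 ratio was 5.52, 10.7 and 6.32 in 4-week β-cells, 2.58, 3.23 and 2.82 in 8-week β-cells, 1.74, 1.42 and 1.78 in 4-week non-β-cells, and 1.33, 1.39 and 1.48 in 8-week non-β-cells. The β-cell ratios lay above the non-β-cell ratios at each age, with an exact permutation p of 0.1, two-sided, which is the smallest that 3 against 3 allows. Col4a5, a minor chain, was at 0 to 0.357 CPM in β-cells and at 0.197 to 5.02 in non-β-cells.

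Type V chains, which regulate fibril diameter, split. Col5a1 read 0.560, 0.238 and 1.01 CPM in 4-week β-cells, 6.20, 3.66 and 5.94 in 8-week β-cells, 18.4, 12.2 and 35.1 in 4-week non-β-cells, and 92.1, 117 and 132 in 8-week non-β-cells. Col5a2 read 0.407, 0 and 1.15, then 5.60, 3.92 and 6.78 in β-cells, and 13.6, 9.93 and 29.5, then 85.1, 90.8 and 112 in non-β-cells. Both had lower β-cell than non-β-cell levels at both ages (adjusted p from 9.50e-07 to 0.006). Col5a3, on chromosome 9 (chr9:20770050-20815067, minus strand, GRCm38), read 31.5, 25.5 and 26.3 CPM in 4-week β-cells, 7.68, 6.71 and 7.54 in 8-week β-cells, 17.1, 10.7 and 31.6 in 4-week non-β-cells, and 86.6, 108 and 125 in 8-week non-β-cells. At 4 weeks the 2 fractions overlapped for Col5a3, with a log2 difference of 0.62 ± 0.28 (SE, adjusted p = 0.0829). Without both 4-week samples numbered 3 it was 1.02 (adjusted p = 0.00496), and the difference passed under 4 of 17 other settings in all. At 8 weeks the log2 difference was -3.85 ± 0.33 (adjusted p = 7.63e-07), with no overlap. Per length, the Col5a3 to Col5a1 ratio was 77.2, 147 and 35.8 in 4-week β-cells, 1.70, 2.52 and 1.75 in 8-week β-cells, and 1.20 to 1.30 in the 6 non-β-cell samples. Its drop in β-cells with age had no overlap and an exact permutation p of 0.1, the smallest possible here. The denominators at 4 weeks were near 1 CPM or below, so those ratios carry large counting error.

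**Figure D3:**
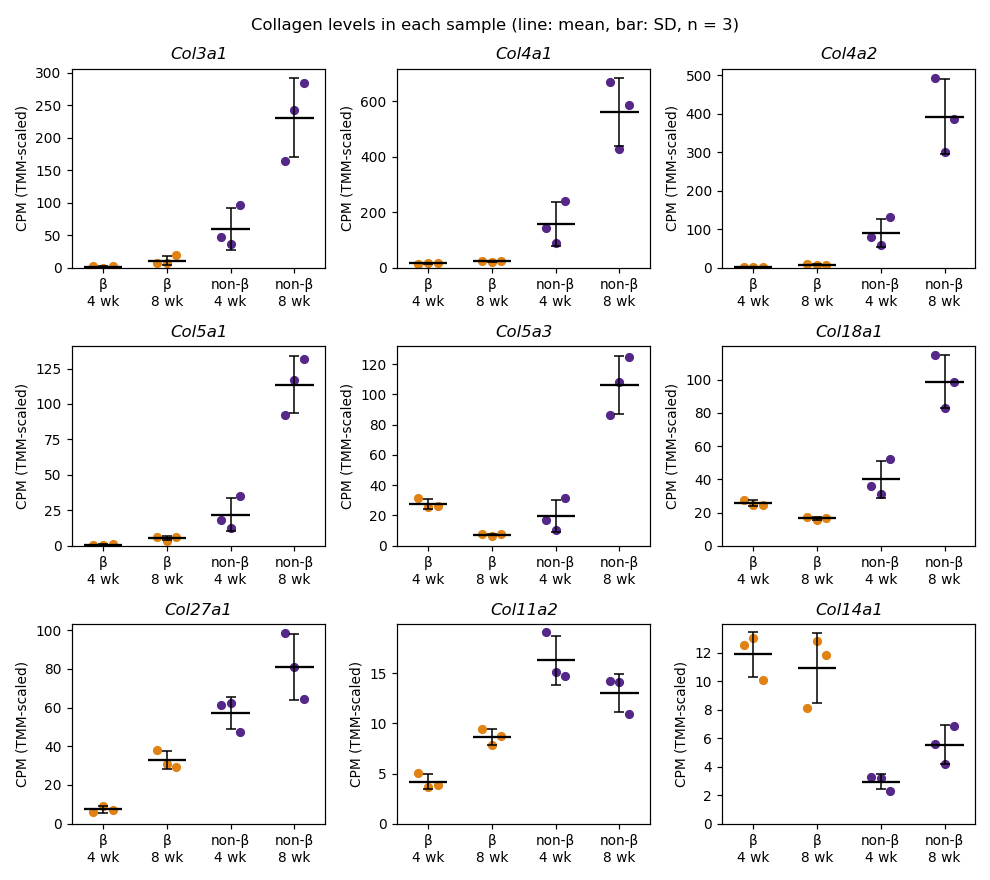
TMM-scaled CPM of 9 collagens in each sample, with the mean (line) and SD (bar) of 3 samples per group, β-cells in orange and non-β-cells in purple. Each panel has its own axis from 0. Col5a3 and Col18a1 fall in β-cells and rise in non-β-cells with age, Col27a1 and Col11a2 rise in β-cells, and Col14a1 is higher in β-cells.

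Among the other fibrillar genes, Col11a2 and Col27a1, chains best known from cartilage, were lower in β-cells at both ages, with log2 differences of -1.99 and -0.59 for Col11a2 and -2.94 and -1.31 for Col27a1. The 8-week Col11a2 call (adjusted p = 0.0171) was lost when 1 of 2 libraries was left out, β-cell replicate 2 or non-β-cell replicate 1 of 8 weeks, with adjusted p up to 0.0772. Col24a1 ran from 0 to 1.81 CPM over all samples, and its call at 8 weeks (adjusted p = 0.0496) was lost under 12 of 17 other settings.

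Type VI chains form beaded filaments around cells. Col6a1 lay at 0.317 to 3.49 CPM in β-cells and 10.4 to 88.3 in non-β-cells, Col6a2 at 0.662 to 4.05 and 8.51 to 90.5, and Col6a3 at 2.80 to 12.8 and 22.0 to 192. Their log2 differences ran from -5.12 to -3.46 over both ages. Col6a4 went the other way at 4 weeks, with 1.93, 0.793 and 1.88 CPM in β-cells against 0.497, 0 and 0.0493 in non-β-cells (log2 difference 3.70 ± 1.1, adjusted p = 0.0171). That call was lost without both samples numbered 3 (adjusted p = 0.0705), without non-β-cell replicate 2, and when only the groups compared were fitted. Col6a5 lay between 0 and 2.51 CPM, and Col6a6, which did not pass at either age, between 0.689 and 2.64.

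Col15a1 and Col18a1, the multiplexins of basement membrane zones, whose type XVIII member yields endostatin, differed in size. Col15a1 read 0.356, 0.119 and 1.65 CPM in 4-week β-cells, 3.56, 1.06 and 4.65 in 8-week β-cells, 17.0, 13.9 and 32.0 in 4-week non-β-cells, and 128, 90.5 and 123 in 8-week non-β-cells. Col18a1 read 27.5, 24.5 and 24.7, then 17.3, 15.7 and 16.5 in β-cells, and 36.2, 31.4 and 52.4, then 115, 83.2 and 98.4 in non-β-cells. The β-cell mean of Col18a1 was 64.0% of the non-β-cell mean at 4 weeks and 16.7% at 8 weeks, against 3.38% and 2.72% for Col15a1. Its 4-week difference of -0.61 (adjusted p = 0.0138) became -0.38 (adjusted p = 0.0756) without both samples numbered 3. Col18a1 shares its locus with Slc19a1 on the opposite strand, which averaged 12.1 CPM.

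Col14a1, a chain that binds to fibril surfaces, was the one collagen called higher in β-cells at both ages. It read 12.5, 13.0 and 10.1 CPM in 4-week β-cells, 8.14, 12.8 and 11.8 in 8-week β-cells, 3.29, 3.18 and 2.32 in 4-week non-β-cells, and 5.58, 4.18 and 6.88 in 8-week non-β-cells. The groups did not overlap at either age, with log2 differences of 2.00 ± 0.29 (SE, adjusted p = 0.000114) and 0.95 ± 0.25 (adjusted p = 0.00655). Col26a1, which had passed the filter only through the non-β-cells, stood at the other end. It was at 0 in all 6 β-cell samples against 1.87 to 4.60 CPM in non-β-cells. Taking 3 counts over the 3 β-cell libraries as the floor, it was lower in β-cells, at least 64.6-fold lower at 4 weeks and at least 84.0-fold lower at 8 weeks. The collagen medians between fractions were -3.21 and -4.06 with Col26a1 at that bound too.

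Of the remaining members, Col25a1, a membrane-spanning chain, lay at 0.734 to 2.31 CPM in β-cells and 7.04 to 15.8 in non-β-cells, and Col9a2 at 6.06 to 10.8 and 17.3 to 24.0, with no overlap. Col16a1, a fibril-associated chain, read 0.560, 0.357 and 1.97, then 1.67, 1.21 and 1.81 CPM in β-cells, and 3.06, 3.62 and 4.44, then 29.3, 21.7 and 25.5 in non-β-cells. Col13a1, another membrane-spanning chain, reached 97.5, 32.9 and 43.1 CPM in 8-week non-β-cells and stayed at or below 3.89 elsewhere. Col8a1 lay at 0 to 1.77 CPM in β-cells and 2.07 to 14.3 in non-β-cells, and Col12a1 at 0.0793 to 0.833 and 2.40 to 19.1. Col7a1, the chain of anchoring fibrils, lay at 0.476 to 4.18 CPM over all samples, Col20a1 at 2.57 to 11.4, and Col23a1 at 0 to 2.99. Col20a1 overlaps BX649560.1 on its own strand, which averaged 6.23 CPM, so reads there could be divided between both.

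With age, the non-β-cells gained collagen transcripts. From 4 to 8 weeks 19 of 31 rose and 0 fell by limma-voom (1 fell at an unadjusted p under 0.05, and 0 by edgeR or DESeq2), with a median log2 change of 2.13 against 0.01 over all genes. Of all genes 11.6% rose and 4.80% fell. Leaving out both 4-week samples numbered 3 added a fall of Col25a1 (adjusted p = 0.0432) and lost the rise of Col6a4 (adjusted p = 0.0998), which was lost under 12 of 17 other settings in all. The 19 were 6 of 9 fibrillar, 3 of 3 type IV and 10 of 19 other collagens. Of these, Col4a5 and Col13a1 had passed the filter only through the 8-week samples in which they were high, so their rise was favoured by the filter. The rise of Col4a5 was lost under 5 of 16 other settings, edgeR and DESeq2 among them. Col1a1 rose by 2.63 ± 0.35 on the log2 scale (SE, adjusted p = 0.000166), Col3a1 by 2.04 ± 0.35, Col4a1 by 1.94 ± 0.27, Col5a1 by 2.50 ± 0.27, Col5a3 by 2.56 ± 0.26 and Col16a1 by 2.83 ± 0.26. Among members with a mean log2 CPM of at least 1, Col16a1 had the largest rise of the other collagens, while Col13a1, one of those favoured by the filter, rose by 5.17 ± 0.86 from a lower mean level. These genes moved with the endothelial and the pericyte and fibroblast markers given above, and with acinar markers. Of 5 Schwann and glial markers tested, 3 rose too by limma-voom and 1 by edgeR and by DESeq2, as did 4 of 8 duct markers by each. The part of all those cells in the rise was not tested. Non-β-cell replicate 3 of 4 weeks had the highest collagen sum of its group, 172 CPM per kilobase against 109 and 86.2. Its endothelial and its pericyte and fibroblast marker sums were the highest there too. So were its acinar, duct, Schwann and glial, leukocyte, β-cell, α-cell, and δ- and PP-cell marker sums. Why that replicate stood highest was not tested. Col27a1, Col11a2, Col9a2, Col14a1 and Col25a1 did not pass, with log2 changes of 0.50, -0.33, -0.04, 0.93 and -0.55.

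In β-cells fewer collagens passed by limma-voom. From 4 to 8 weeks 7 rose and 2 fell by limma-voom, with a median of 1.07 against 0.02 over all genes. Backgrounds were 8.59% of genes rising and 9.35% falling. By edgeR 12 rose and by DESeq2 15, and 2 fell by each. The 7 were Col1a2, Col6a3, Col7a1, Col8a1, Col11a2, Col20a1 and Col27a1, and the 2 were Col5a3 and Col18a1. Col27a1 read 6.01, 9.12 and 6.88 CPM at 4 weeks and 38.0, 30.9 and 29.3 at 8 weeks, a log2 rise of 2.14 ± 0.25 (SE, adjusted p = 0.000104). Col11a2 went from 5.09, 3.65 and 3.85 to 9.44, 7.84 and 8.79 CPM (1.07 ± 0.23, adjusted p = 0.00714). Col5a3 fell by 1.92 ± 0.34 on the log2 scale (adjusted p = 0.00204) and Col18a1 fell by 0.63 ± 0.20 (adjusted p = 0.0444). Neither gene's β-cell groups overlapped between ages. The calls of Col5a3, Col11a2, Col20a1 and Col27a1 held under all 17 other settings. Those of Col1a2, Col6a3 and Col18a1 were lost whenever any 1 of the 6 β-cell libraries was left out, and those of Col7a1 and Col8a1 with 5 of the 6. Col3a1 (3.22 ± 1.2, adjusted p = 0.0833), Col5a1 (3.28 ± 1.1, 0.0642) and Col5a2 (4.76 ± 1.6, 0.0623) had larger changes than Col11a2 but wider spread, and each 8-week sample lay above each 4-week sample. Without both samples numbered 3, Col1a1, Col5a1 and Col5a2 passed and Col8a1 did not.

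**Figure D4:**
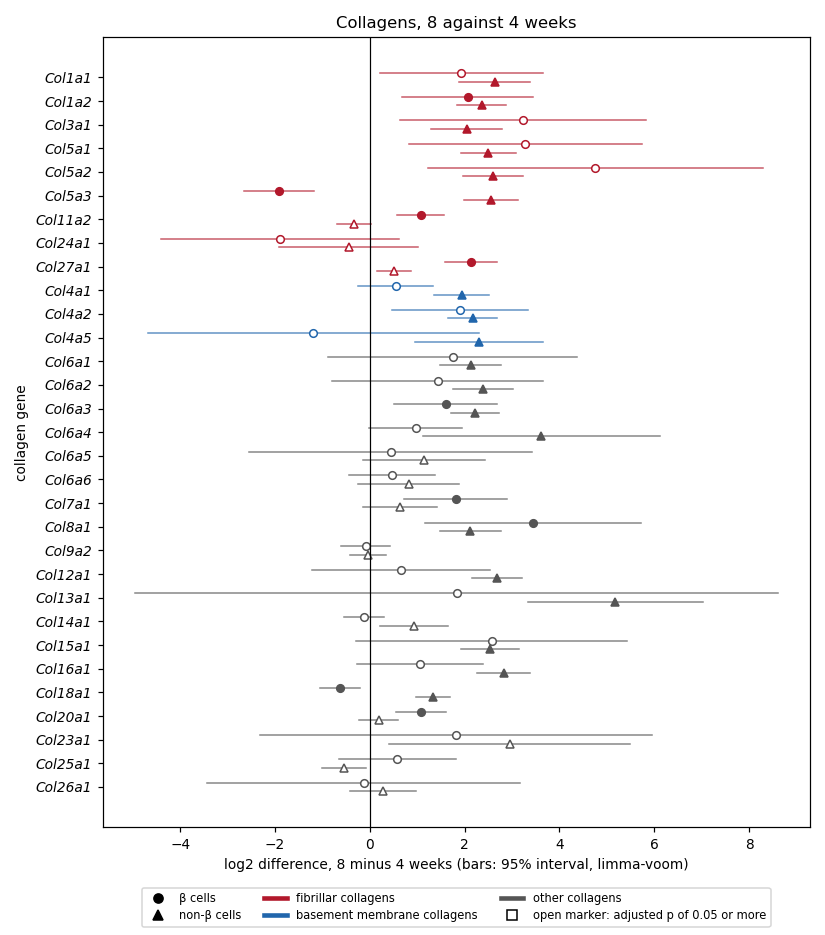
Log2 change from 4 to 8 weeks in β-cells (circles) and non-β-cells (triangles) for each collagen, with 95% intervals from limma-voom and filled markers where the adjusted p was under 0.05. Most triangles lie near 2. Col5a3 and Col18a1, whose age change differed between fractions by the test, have circles left of 0 and triangles right of it. Col27a1 and Col11a2, which differed by that test too, have circles to the right of their triangles. Members that did not pass that test can lie the same way. Among them are Col4a5 and Col14a1 for the first layout, and Col3a1, Col5a1 and Col5a2 for the second.

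A test of the age by cell type interaction, β-cell change minus non-β-cell change, called 2 of the 31 higher and 2 lower, and left 27 uncalled, with a median of -0.41 against 0 over all genes. Of all genes 1.80% were called higher and 3.33% lower. Col5a3 had -4.47 ± 0.43 (SE, adjusted p = 6.55e-05) and Col18a1 -1.97 ± 0.26 (adjusted p = 0.000725), and both fell in β-cells and rose in non-β-cells. Col27a1 had 1.64 ± 0.30 (adjusted p = 0.00691) and Col11a2 1.40 ± 0.29 (adjusted p = 0.0125). All 4 calls held under each of the 22 other settings. Col4a1 had -1.39 ± 0.46 (adjusted p = 0.11) and was called without both samples numbered 3 (-1.72, adjusted p = 0.0154). The age changes of Col1a1, Col1a2, Col3a1, Col4a2 and Col15a1 differed by -0.70, -0.30, 1.18, -0.27 and 0.03, with intervals that include 0, which does not show that they were the same.

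Collagen-processing genes were read from lists that earlier results of these data had informed. Of 28 biosynthesis genes tested, 11 were higher and 12 lower in β-cells at 4 weeks, and 7 higher and 15 lower at 8 weeks. Over all genes 24.9% were higher and 23.7% lower at 4 weeks, and 23.6% and 25.6% at 8 weeks, so the share higher at 8 weeks was near the background. Their medians were -0.21 and -0.67. P4ha1 and P4ha2, subunits of prolyl 4-hydroxylase, were higher in β-cells at both ages (P4ha1 by 1.58 and 1.05 on the log2 scale, P4ha2 by 1.27 and 1.46). From 4 to 8 weeks 16 of 28 rose and 1 fell in non-β-cells (median 0.95), against 11.6% and 4.80% of all genes. In β-cells 3 rose and 4 fell (median 0.13), close to the 8.59% and 9.35% of all genes, and 7 rose by edgeR and by DESeq2. Serpinh1, the collagen chaperone HSP47, read 20.2, 21.1 and 22.2 CPM in 4-week β-cells and 9.16, 8.63 and 10.8 in 8-week ones, against 30.1, 18.4 and 41.5 and then 95, 111 and 136 in non-β-cells. Its interaction was -3.14 (adjusted p = 0.000259), in the direction of Col5a3. Loxl2, a crosslinking oxidase, was 2.27 higher in β-cells at 4 weeks on the log2 scale, and at 8 weeks the difference was 0.05, with 23.2 to 42.2 CPM in non-β-cells and 31.3 to 35.7 in β-cells.

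Other matrix genes moved as the collagens did in non-β-cells. From 4 to 8 weeks 14 of 15 further basement membrane genes rose there (median 1.93), 14 of 16 interstitial matrix genes (2.51), 8 of 14 collagen degradation genes (2.33), 5 of 9 collagen receptors (2.23) and 13 of 20 TGF-β pathway genes (1.38), and 0 of these genes fell by limma-voom, by edgeR, by DESeq2 or at an unadjusted p under 0.05. Of all genes 11.6% rose there. Which of these genes, or of the biosynthesis genes, passed the filter only through 8-week non-β-cells is not given. For any such gene, the rise and a lower level in β-cells were favoured by the filter. Of the degradation genes 5 rose by edgeR and 5 by DESeq2. In β-cells 1, 0, 2, 1 and 2 of them rose and 0, 0, 0, 1 and 4 fell, where 8.59% of all genes rose and 9.35% fell, so most of these counts were near the background. By edgeR and DESeq2, 3 and 4 of the further basement membrane genes rose there, 6 and 7 of the degradation genes, and 1 and 2 of the collagen receptors. The interstitial matrix genes there, of which 0 rose by limma-voom, included 6 that rose at an unadjusted p under 0.05, 5 by edgeR and 7 by DESeq2. Of the lists with 0 falling, the degradation genes had 1 at an unadjusted p under 0.05 and 1 by DESeq2, against 0 by edgeR. The further basement membrane genes had 0 by each test after adjustment. At an unadjusted p under 0.05 they had 0 by limma-voom, 1 by edgeR and 1 by DESeq2. The interstitial matrix genes had 0 throughout. Between fractions, 9 of 15, 10 of 16, 5 of 14, 4 of 9 and 12 of 20 were lower in 4-week β-cells, and 12, 15, 11, 5 and 16 in 8-week β-cells, against 23.7% and 25.6% of all genes. The 5 degradation genes at 4 weeks were 7 by edgeR and 8 by DESeq2. The laminin chain Lama3 was higher in β-cells at both ages, with log2 differences of 2.78 (adjusted p = 3.74e-05) and 0.87 (adjusted p = 0.00791).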

How the data were processed

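RNA was sequenced from 12 samples, 4 groups of 3 given by the labels. Per the study's methods, the authors filtered reversely stranded single-end reads with fastp, quantified them with kallisto (Ensembl, GRCm38) and summed transcripts with tximport. The tool versions are not given in the sources used here. What the authors deposited are unscaled, unfiltered estimated counts for each gene. Whether strand was used in counting is not stated. The table held 52962 identifiers, of which 51916 had a symbol in GENCODE M21 (GRCm38), the source of coordinates and transcript lengths.

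Estimated counts were rounded, genes above 1 CPM in at least 3 samples kept (15598), scaled by TMM (edgeR 4.0.16) and compared with limma 3.58.1 (limma-voom, under R 4.3.3) in 1 model with a mean per group over all 12 samples. This follows the study's stated analysis. All were two-sided, with Benjamini-Hochberg adjustment over all tested genes and a threshold of 0.05. CPM in the text are TMM-scaled, and levels between genes are per kilobase of transcript. The floor of 3 counts covers counting error only. Replicates of a group differed beyond sampling noise (chi-square per degree of freedom 8.05 to 97.8). The script was tested on simulated data.

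The rule for named genes took Col3a1, Col4a2, Col5a3, the member with the largest called change per class and comparison, and their partner chains. The largest change was sought among members with a mean log2 CPM of at least 1. Values per sample were given for the members so picked, except Col6a3 and its partners Col6a1 and Col6a2, given by range. The other members were given by range, with further members described after their values were seen. The members, lists and rule were chosen with earlier results of these data known. Alternatives included DESeq2 1.42.0 and the quasi-likelihood test of edgeR, other scalings and filters, sample weights, the groups compared alone, a replicate block and left-out samples.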

Additional observations from a re-analysis of the deposited data

Results flagged for a closer look

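The age change of 4 collagens differed between fractions by the interaction test of limma-voom. It was -4.47 for Col5a3 and -1.97 for Col18a1, which fell in β-cells and rose in non-β-cells, and 1.64 for Col27a1 and 1.40 for Col11a2, on the log2 scale, all β-cells minus non-β-cells. In groups of 3 no sample was tested as standing apart.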

How the results depend on the processing

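The count of collagens called between 4 and 8 weeks in β-cells was 9 and became 14 with edgeR's quasi-likelihood test, 17 with DESeq2 and 15 with sample quality weights, and 4 to 5 when any 1 of the 6 β-cell libraries was left out, so the threshold and the 3 samples per group limit it. The interaction count of 4 was 7 with DESeq2 and 4 to 5 with 1 library left out. The counts over the 31 collagens in the other comparisons moved by less than 1.5 times. Of the marker and matrix lists, those whose counts moved by more with edgeR or DESeq2 are given with those values beside them.

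Some uncalled interactions changed sign. For Col15a1 (0.03) the value was -0.31 with edgeR, -0.34 with DESeq2, -0.01 with total counts as the only scaling, -0.01 without a filter and -0.24 with a replicate block, and ran from -0.93 to 0.98 with 1 library left out. The same range was -0.79 to 0.04 for Col1a2, -0.07 to 1.77 for Col3a1 and -0.87 to 0.01 for Col6a1. The cause was not tested. For the 15 members picked by the rule for named genes, and not for all 31, 75 results had 1350 alternative values. Of these, 1271 kept direction and side of the threshold, 43 newly passed, 22 no longer passed and 14 changed sign. Members outside that set include Col6a4 and Col24a1. The rise of Col6a4 in non-β-cells and the 8-week call of Col24a1 were each lost under 12 of 17 other settings.

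The sample descriptions give the groups shared numbers. Over all tested genes the deviations of same-numbered β-cell and non-β-cell samples correlated at 0.08, 0.13 and 0.31 at 4 weeks and 0.02, 0.05 and 0.01 at 8 weeks, so the numbers were not taken to pair samples. Over the 10280 genes averaging a log2 CPM of 3 or more, a limit set after those values were seen, they were 0.29, 0.43 and 0.67, then 0.12, 0.16 and -0.07. With the replicate block 3 collagens were higher and 22 lower in β-cells at 4 weeks, with Col5a3 (0.53, adjusted p = 0.0463) and Col13a1 gained and Col6a5 and Col7a1 lost; the interaction gained Col4a1 (adjusted p = 0.0042) and Col16a1 (adjusted p = 0.0466).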
